A study of Rattus norvegicus with 4 samples.

Results

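Regions of open chromatin that were called in retinal ganglion cells (RGCs) before birth, were not called after birth, and lay away from chromatin open at both stages, numbered 10737. RGCs carry visual signals from the retina to the brain through the optic nerve. They were isolated by immunopanning, a selection with antibodies that removed macrophages and then retained Thy1-positive cells, from Sprague Dawley rat retina, either from embryos at day 21 of gestation (E21) or from pups at day 11 after birth (P11). No allele and no treatment is named for either group, and each stage had 2 libraries of 300000 cells that had been frozen, each from a separate litter. ATAC-seq, in which a transposase inserts adapters into accessible DNA, was used to call open chromatin regions (OCRs) separately in each of the 4 libraries. The lists hold no expression values, so the cell type was not checked against its marker genes.

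The members were chosen by the calls themselves. OCRs on chromosomes 1 to 20 that overlapped by at least 1 bp were merged across the libraries into 224715 regions. A region was E21-only if both E21 libraries and neither P11 library had it, which held for 17102 regions, or 7.61% of those merged, against 28103 P11-only regions, or 12.51%. E21-only regions that lay in chains of at least 3 close neighbours were set aside (906 regions). Of the remaining 16196, the 10737 that lay more than 5 kb, edge to edge, from each of the 81097 regions called in all 4 libraries are termed far, and the other 5459 are termed beside. The far regions made up 62.8% of the E21-only regions and 4.78% of all merged regions. A call in E21 and its absence in P11 are thus part of the definition and are given without a test. Leaving out E21 replicate 1, so that a single E21 library decided presence, moved the number of far regions to 18124.

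Open chromatin in a neuron marks promoters and, away from them, enhancers and other elements where transcription factors displace nucleosomes. Promoters are often accessible in many cell types and stages, whereas distal elements tend to change more with cell type and age. As neurons mature, enhancers used during axon outgrowth can lose accessibility while others are gained with synapse formation and activity. The rule used only distances between OCRs, and no far region was assigned to a gene or to a promoter here, so none of these roles was checked. Positions are on the rn6 assembly named in the submitters' processing notes.

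The lists held from 123707 to 163714 OCRs per library on the numbered chromosomes. The summit pileup of each OCR (the number of fragments over its highest point) and its local background were recovered from the fold and the p value. The genome-wide background was 4.80 and 5.03 fragments in E21 replicates 1 and 2 and 4.30 and 4.17 in P11 replicates 1 and 2, which is lower at P11. The weakest OCR had a pileup of 14 fragments in each E21 library and 13 in each P11 library. Sites with more fragments can also go uncalled where the local background is higher. A missing call therefore does not show that a region was closed.

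Most far E21-only regions had a low pileup over a background at the genome-wide level. Their median summit pileup was 26 fragments in E21 replicate 1 and 30 in replicate 2, with quartiles of 22 to 33 and 24 to 39. The median fold enrichment over the local background was 4.65 and 4.97 in the same libraries. The quartiles were 3.82 and 5.86 in replicate 1 and 4.09 and 6.46 in replicate 2. Their OCRs were narrow, with a median width of 265 bp in replicate 1 and 319 bp in replicate 2, against 379 and 400 bp for all OCRs of these libraries. In the list of each library, ranked by −log10 q from 0 to 100, the median far region stood at the 30.4 percentile in replicate 1 and at the 38.03 percentile in replicate 2.

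Strong sites were a small part of the far regions. Both E21 libraries ranked 1566 of them (14.6%) at or above the 50 percentile, 137 (1.28%, 95% Wilson interval 1.08 to 1.51%) at or above the 75 percentile and 3 at or above the 90 percentile. At the other end, 2091 (19.5%) ranked below the 25 percentile in both. A fold of at least 8 in both libraries was reached by 491 far regions (4.57%) and a fold of at least 10 by 146 (1.36%). The 137 strong ones occurred on all 20 chromosomes. Their median pileup was 74 and 78 fragments in E21 replicates 1 and 2 and their median width was 525 and 595 bp, against 265 and 319 bp over all far regions.

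The 10 far regions with the highest mean rank carried pileups of 81 to 155 fragments and folds of 12.48 to 19.5 at E21. By the rule they had no OCR in either P11 library. Their E21 OCRs were 462 to 833 bp wide in replicate 1 and 457 to 850 bp in replicate 2. The medians over all far regions were 265 and 319 bp. Their summits in the 2 libraries lay 1 to 52 bp apart. The highest, chr15:10731582-10732431, had 112 fragments in replicate 1 and 138 in replicate 2, a fold of 18.3 and 19.4. The region chr1:205507266-205507965 had 112 and 114 fragments over the genome-wide background, a fold of 19.5 and 19.1. In both regions the pileup was well above the medians of 26 and 30 fragments in either replicate, which follows from their choice by rank.

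Some of the strongest sites lay far from any OCR of the later stage. The region chr15:78947036-78947546 had 100 and 104 fragments in E21 replicates 1 and 2 and lay 192255 bp from the nearest region in all 4 libraries. Its nearest OCR of any P11 library was 46687 bp away. The region chr18:82738547-82739083 had 132 and 81 fragments, was 226440 bp from constant open chromatin and 89329 bp from any P11 OCR. Of the 10 regions it had the largest difference in pileup between replicates. The region chr3:141417899-141418687, with 138 and 133 fragments, was 191841 bp from a region in all 4 libraries but 13535 bp from a P11 OCR. Others of the 10 had postnatal open chromatin close by. The region chr10:45688824-45689422 had 155 and 129 fragments and a P11 OCR at 1133 bp, and chr14:75634198-75634967 had 102 and 142 fragments and a P11 OCR at 1161 bp. At these positions an OCR called only at E21 thus had a neighbour called in at least 1 P11 library.

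The remaining regions of the 10 had their nearest P11 OCR at 18406, 10123 and 9728 bp, in the order named here. The region chr2:141740099-141740825 had 104 and 99 fragments in replicates 1 and 2, and chr7:108879417-108880011 had 88 and 116. The region chr14:36883058-36883766 had 117 and 98 fragments at 9728 bp from constant open chromatin. The 3 widest far regions had pileups of 20 to 38 fragments, against medians of 26 and 30 over all far regions in replicates 1 and 2. The widest, chr8:107194100-107196075, spanned 1976 bp and had a pileup of 31 and 38 fragments, with an OCR of 360 bp in replicate 1 and of 1976 bp in replicate 2. The next were chr9:11761658-11763266 with 26 and 20 fragments and chr1:177764097-177765695 with 33 and 25.

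To set the E21 signal beside the lowest pileups called at P11, the E21 pileups were scaled by the ratio of genome-wide backgrounds (from 0.828 to 0.895), and the lowest of the 4 scaled values was kept for each far region. The lowest pileup called at the genome-wide background in the P11 libraries was 13 fragments. The scaled pileup had a median of 20.8 fragments. A call in both E21 libraries already requires 14 fragments, which scales to slightly below 13. The minimum of 13 was thus reached by 10695 far regions (99.6%) nearly by construction. The scaled pileup reached 2 times that minimum in 2774 (25.8%), 3 times in 611 (5.69%) and 5 times in 42 (0.391%). Most far regions were thus above the P11 minimum by less than a factor of 2. The local background at these positions in the P11 libraries is not known.

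**Figure D1:**
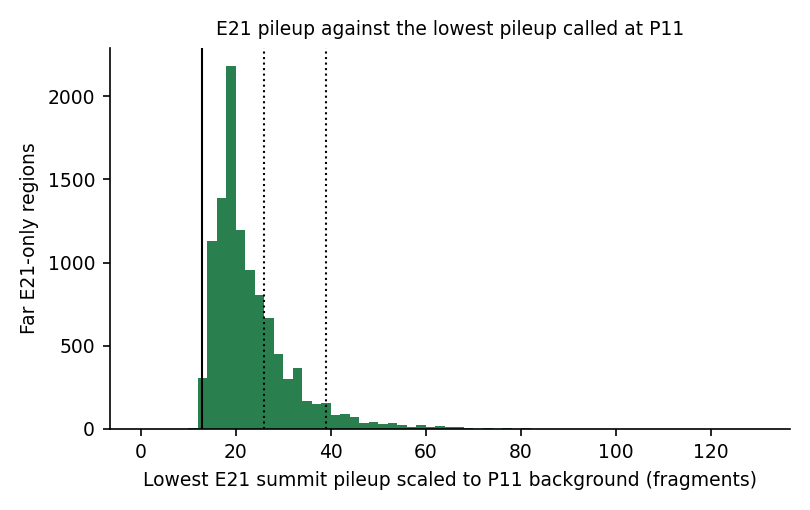
Histogram of the 10737 far E21-only regions by their lowest E21 summit pileup after scaling to the P11 background (x axis, fragments; y axis, number of regions). The solid line marks 13 fragments, the lowest pileup called at the P11 background, and the dotted lines 2 and 3 times that value; 25.8% of the regions lie at or beyond the first dotted line.

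The replicates placed the far regions at similar positions but differed in their strength. The summits in E21 replicates 1 and 2 were a median of 29 bp apart (quartiles 9 and 71 bp), and 65.1% were within 50 bp. The median gap between these replicates was 26 bp in beside E21-only regions and 20 bp in regions called in all 4 libraries. The close summits were thus not particular to the far regions. In far regions the narrower of both OCRs was typically contained in the wider one, with a median overlap of 100% of the narrower and 74.2% of the wider. Across far regions, which share the same pair of libraries and are not independent replicates, Spearman's rho of −log10 q was 0.561 and that of width 0.539. The rho of −log10 q was similar in the other stage-only sets, 0.553 in beside E21-only and 0.520 in far P11-only regions, and was 0.906 in the regions called in all 4 libraries. The latter cover a wider range, with a −log10 q of up to 5175.52 in E21 replicate 1 against 123.34 in far regions. The part of this range in rho was not tested. The rank of a far region differed between the replicates by 15.1 percentile points on average, and the pileup was higher in replicate 2 in 64.4%. The rank difference was 14.3 points in beside E21-only regions and 10.8 in regions called in all 4 libraries. The pileup was higher in replicate 2 in 68.0% and 71.4% of these sets.

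Summit agreement followed strength. Far regions were divided into 4 parts of similar size by their mean rank. In the 2709 with the lowest rank the median gap between summits was 47 bp, and 52.5% were within 50 bp. It was 32 bp in the next 2660, 24 bp in the next 2686 and 18 bp in the 2682 of highest rank, where 75.1% were within 50 bp. Over the 137 strong regions it was 13 bp. Far P11-only regions, chosen in the same way at the other stage, had a median gap of 55 bp between P11 replicates 1 and 2, and 47.5% were within 50 bp. Their fold and pileup were lower than those of the far E21-only regions (medians of 4.34 and 4.64, and of 23 and 24 fragments), and the part of this in the gap was not tested.

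**Figure D2:**
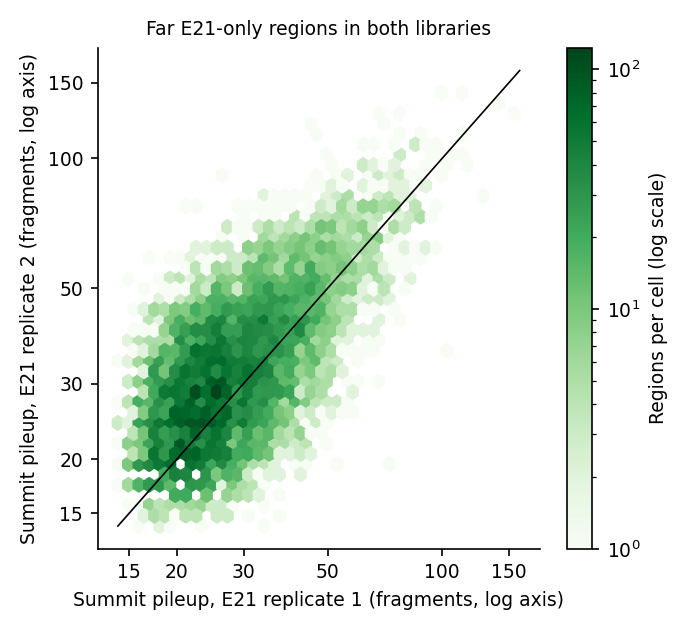
Summit pileup of each far E21-only region in E21 replicate 1 (x axis) and replicate 2 (y axis), in fragments on log axes, with the number of regions per hexagon in green (log scale) and the line of equal values. The cloud runs along the line with a wide spread and leans to replicate 2, where 64.4% of the regions had the higher pileup. In regions called in all 4 libraries this share was 71.4%. The medians of the far regions are 26 and 30 fragments.

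The far regions were then compared with the E21-only regions beside constant open chromatin. Far regions had the higher median fold, 4.65 against 4.12 in E21 replicate 1 and 4.97 against 4.18 in replicate 2. The difference was 0.662 ± 0.183 (SD over 2 libraries) and was higher in 2 of 2 libraries (exact sign-flip permutation test over libraries, two-sided, p = 0.5, the smallest that 2 libraries allow). The pileup differed the other way, with medians of 26 against 31 fragments in replicate 1 and 30 against 36 in replicate 2. Far regions thus had fewer fragments and a higher fold. The fold is a ratio to the local background, and the sets were split by distance to constant open chromatin. The rule may therefore bear on both differences, and its part was not tested. Rank did not separate the sets, with medians of 30.4 against 30.4 and 38.03 against 37.1 percentiles (difference 0.463 ± 0.654, exact sign-flip p = 1). That difference was negative under 3 of 14 alternatives. It was −1.20 without E21 replicate 2, −0.262 without P11 replicate 1 and −7.09 with OCRs of a fold of at least 4. Among regions at the genome-wide background in both E21 libraries it was 2.86, and with a −log10 q of at least 5 it was 1.57. The higher fold and lower pileup were not particular to E21. In P11-only regions, far minus beside medians were 0.566 and 0.710 in fold in P11 replicates 1 and 2. In pileup they were −5 and −5 fragments.

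The local background moved with these differences. It lay at the genome-wide level in 89.0% of far regions in replicate 1 and 85.5% in replicate 2, against 28.6% and 21.2% of the beside regions. The median background of beside regions was 5.91 and 7.05 fragments, and 90% of far regions had at most 4.89 in replicate 1 and at most 5.49 in replicate 2. In P11 replicates 1 and 2 the share at the genome-wide level was 74.6% and 72.2% of far P11-only regions. Of beside P11-only regions it was 19.1% and 17.0%. When only regions at the genome-wide background in both E21 libraries were kept (a restriction added once the values were known), 8932 far and 1034 beside regions remained. Their medians were 25 against 24 fragments in replicate 1 and 29 against 28 in replicate 2. The fold difference was then 0.169. Without E21 replicate 1, which changes the members too, the fold difference was 0.425, without E21 replicate 2 it was 0.433, among OCRs with folds from 4 upward 0.427, and with a limit of 10 kb it was 0.426.

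Far regions were slightly wider than beside regions, 265 against 252 bp in E21 replicate 1 and 319 against 291 bp in replicate 2. The difference of 20.5 ± 10.6 bp had the same sign in 2 of 2 libraries (exact sign-flip p = 0.5). It was 16.5 bp at the genome-wide background, 11 bp without E21 replicate 2, 4 bp among OCRs with folds from 4 upward, 33 bp among those whose −log10 q reached 5 and 33.8 bp with equal numbers of OCRs. At the upper end of the lists, 1.28% of far regions (1.08 to 1.51%) and 0.568% of beside regions (0.400 to 0.805%) ranked at or above the 75 percentile in both E21 lists. These are 95% Wilson intervals, which cover counting error only. Of the beside regions 0 ranked at or above the 90 percentile in both. Among P11-only regions the far ones also had the greater median width, by 21 and 32 bp in P11 replicates 1 and 2.

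**Figure D3:**
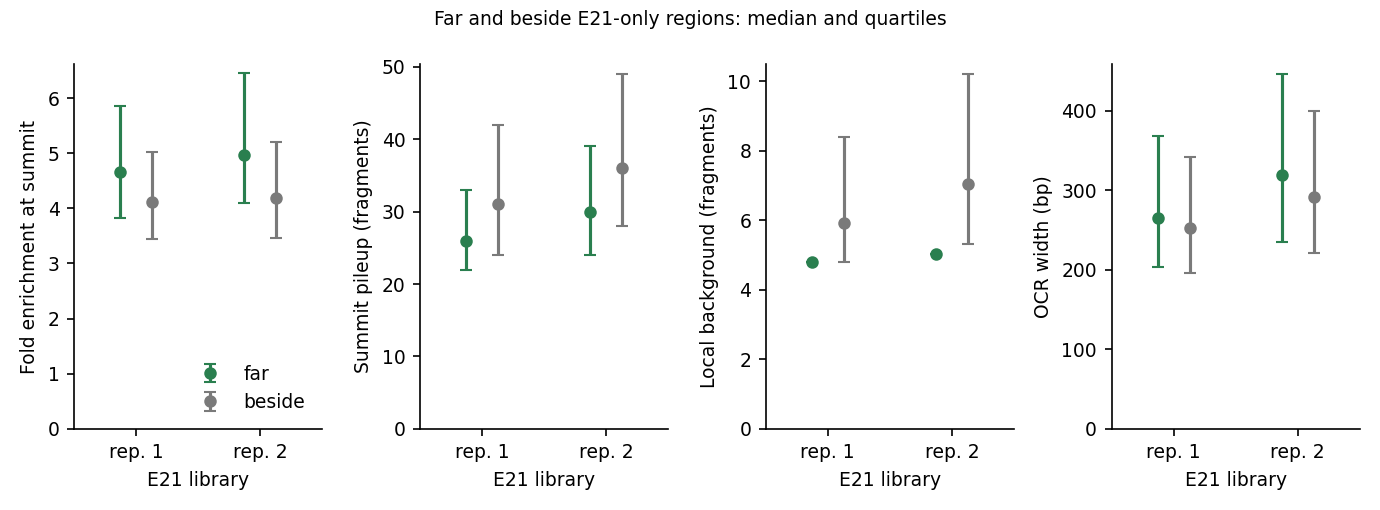
Fold enrichment, summit pileup, local background and OCR width (y axes, with units) of far (green) and beside (grey) E21-only regions in each E21 library (x axis); points are medians over regions and bars the quartiles. Far regions have the higher fold (4.65 and 4.97) with the lower pileup (26 and 30 fragments), and the quartiles of their background coincide with the genome-wide level.

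The distance to constant open chromatin varied widely among far regions. Its median was 15687 bp, with quartiles of 8978 and 31280 bp, and the longest was 1284257 bp. Between 5 and 10 kb there were 3227 far regions (30.1%), and 582 (5.42%) lay over 100 kb away. Pileup and width were similar near and far. The median pileup was 26 fragments in replicate 1 and 30 in replicate 2 for far regions at 5 to 10 kb, and 27 and 29.5 for those beyond 200 kb. The median width was 264 and 320 bp at 5 to 10 kb and 270.5 and 306 bp beyond 200 kb. The share at the genome-wide background was 81.7% and 76.4% at 5 to 10 kb and 97.6% and 98.2% beyond 200 kb.

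The limit of 5 kb fell within a continuous range. Just inside it, chr14:35655328-35655639 at 5001 bp had a pileup of 20 and 22 fragments, chr4:130476418-130476650 at 5002 bp had 23 and 35, and chr7:126945612-126945871 at 5003 bp had 22 and 27. Just outside it, chr8:47230549-47230786 at 5000 bp had 39 and 30 fragments, chr7:120539614-120539954 at 4999 bp had 39 and 44, and chr13:108398485-108398764 at 4999 bp had 27 and 30. At the other extreme, the 3 regions farthest from constant open chromatin were on chromosome 3. They were chr3:88531238-88531542 with 35 and 44 fragments, chr3:88708452-88708649 also with 35 and 44, and chr3:75532024-75532423 with 29 and 46.

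The share of E21-only regions was larger farther from constant open chromatin. Of the regions not called in all 4 libraries and lying within 1 kb of one that was, 8.78% (95% Wilson interval 8.37 to 9.21%) were E21-only. The share was 11.2% (10.9 to 11.6%) at 5 to 10 kb, 14.1% (13.7 to 14.6%) at 20 to 50 kb and 18.2% (16.7 to 19.9%) at 100 to 200 kb. The P11-only share was 19.6% within 1 kb, 20.02% at 5 to 10 kb, 18.5% at 20 to 50 kb and 13.01% at 100 to 200 kb. Of all stage-only regions, chained ones included, 31.0% were E21-only within 1 kb and 58.3% beyond 100 kb. Both shares moved with single libraries, to 37.1% beyond 100 kb without P11 replicate 1 and to 49.5% within 1 kb without E21 replicate 1. In between, at 50 to 100 kb, 51.5% (49.2 to 53.7%) were E21-only.

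This difference of 27.3 percentage points was described and not tested, since the calls define the sets. In the 4 pairs of 1 E21 and 1 P11 library, which share libraries and are not independent, it ran from 7.67 to 26.0 points. The level moved with the pair, as 41.3 to 65.2% of the stage-only regions beyond 100 kb were E21-only. With regions at the genome-wide background only, the shares were 40.7% within 1 kb and 60.7% beyond 100 kb. The difference was 11.9 points without P11 replicate 1 and 11.5 points with OCRs of a fold of at least 4. For this difference every alternative was added once the values were known.

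**Figure D4:**
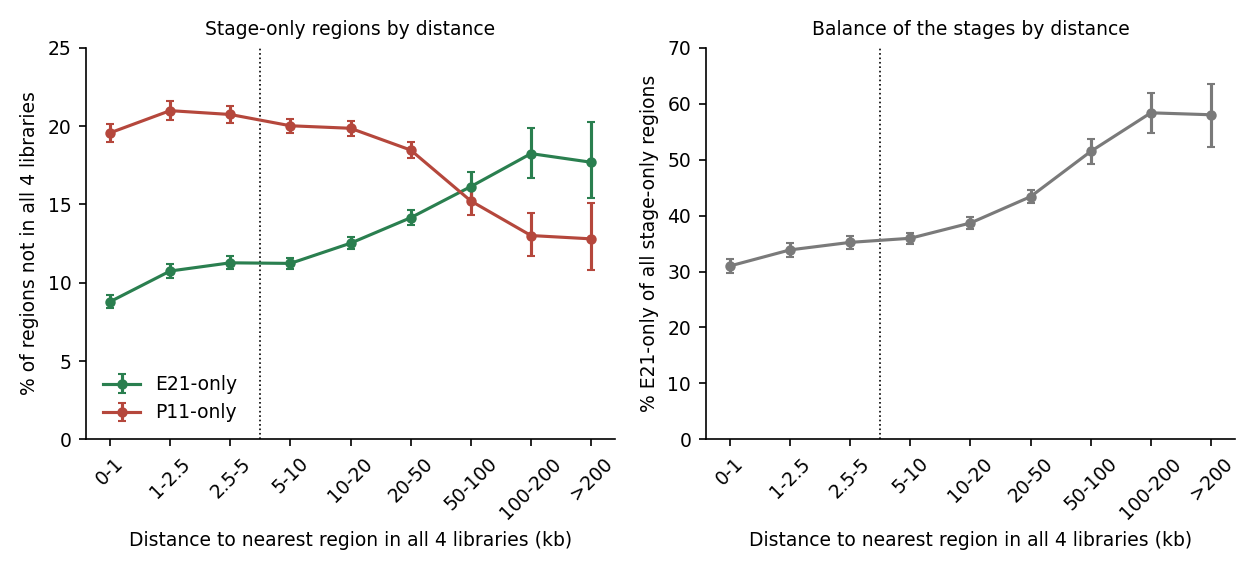
Left, E21-only (green) and P11-only (red) regions as a percentage of the regions not called in all 4 libraries, by distance to the nearest region that was (x axis, kb, unequal bins); right, E21-only regions as a percentage of all stage-only regions. Bars are 95% Wilson intervals and the dotted line marks 5 kb; the E21-only share goes from 8.78% within 1 kb to 18.2% at 100 to 200 kb, and the right panel passes 50% at 50 to 100 kb.

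The far share of the stages was then compared. Far regions made up 66.3% (65.6 to 67.0%) of the unchained E21-only regions, and 14162 far regions made up 59.5% (58.9 to 60.1%) of the unchained P11-only regions, a difference of 6.78 points. In the 4 pairs of 1 E21 and 1 P11 library the difference ran from 1.44 to 6.03 points, below the value from all 4 libraries. The pairs reuse the same libraries and are not independent, so their common sign is a description. It was 3.42 points without P11 replicate 1 and 4.49 points with equal numbers of OCRs per library. When OCRs below a fold of 4 were dropped, it was −3.88 points, so its direction depended on the limit for OCRs. Per library, the share of all regions outside constant open chromatin that lay over 5 kb from it was 63.2% and 62.9% for E21 replicates 1 and 2 and 58.8% and 59.8% for P11 replicates 1 and 2. The stages did not overlap in this value (exact permutation test over libraries, two-sided, p = 0.33, the smallest it can give).

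The order of the stages was the same on 19 of 20 chromosomes. The far share of unchained E21-only regions ran from 60.1% on chromosome 20 to 69.7% on chromosome 2, and that of P11-only regions from 47.9% on chromosome 12 to 65.3% on chromosome 11. The 95% Wilson intervals of the stages overlapped on 8 of these 19 and were apart on 11. These intervals cover counting error only. All chromosomes come from the same 4 libraries and are not independent replicates, so their common order is a description. Chromosome 17 was the exception, with 60.2% (55.6 to 64.6%) at E21 and 63.2% (60.5 to 65.9%) at P11, where the intervals overlapped too. It also had the lowest density of far E21-only regions, 83.8 per 1000 regions in all 4 libraries, against 132.4 over all chromosomes and 160.1 on chromosome 10, where the density was highest. By number, far E21-only regions ran from 200 on chromosome 20 to 1184 on chromosome 1.

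**Figure D5:**
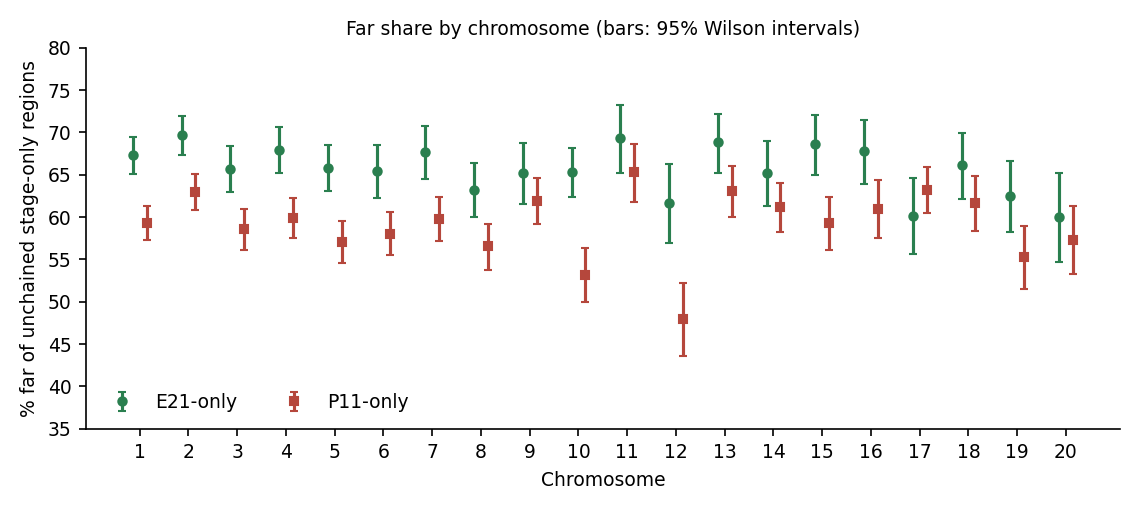
Share of unchained stage-only regions that lay over 5 kb from constant open chromatin (y axis, percent, starting at 35) on each numbered chromosome (x axis), for E21-only (green circles) and P11-only (red squares) regions; bars are 95% Wilson intervals. The E21-only share is the higher on each chromosome but 17, where it is 60.2% against 63.2%. All chromosomes share the same 4 libraries, and the bars cover counting error only.

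Far regions of the stages also differed in form. The median fold was 4.65 and 4.97 for far E21-only regions in E21 replicates 1 and 2 and 4.34 and 4.64 for far P11-only regions in P11 replicates 1 and 2. The median pileup was 26 and 30 fragments at E21 and 23 and 24 at P11, beside genome-wide backgrounds that were also higher at E21. Far E21-only regions were narrower, 265 and 319 bp against 333 and 358 bp. They lay at the genome-wide background more often, 89.0% and 85.5% against 74.6% and 72.2%. The stages did not overlap in any of these 4 values, although the lower E21 fold of 4.65 and the higher P11 fold of 4.64 nearly met. The exact permutation test over libraries gave p = 0.33 for each of these 4 differences, its lower limit with this design, and sequencing depth cannot be told apart from stage in them. Over all OCRs of the libraries, fold, pileup and background share differed in the same direction. Median fold was 5.69 and 5.47 in E21 replicates 1 and 2 and 4.61 and 4.84 in P11 replicates 1 and 2. Median pileup was 39 and 41 against 30 and 31 fragments. The share at the genome-wide background was 44.6% and 44.0% against 39.1% and 39.3%. Median width overlapped, with 379 and 400 against 394 and 397 bp. Which stage had more strong far regions depended on the measure. By rank, 3.79% (3.49 to 4.12%) of far P11-only regions stood at or above the 75 percentile in both P11 lists, against 1.28% (1.08 to 1.51%) of far E21-only regions in both E21 lists, which are shorter. By fold the order was the other way, as a fold of at least 8 in both libraries was reached by 2.28% (2.05 to 2.54%) at P11 and 4.57% (4.19 to 4.98%) at E21.

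The neighbourhood of most far regions held other OCRs. Their nearest region of any kind was a median of 5139 bp away, and 17.5% had one within 1 kb. That nearest region had been called in 1 library only in 36.6% of cases, was in all 4 libraries in 17.6%, was another E21-only region in 12.51% and a P11-only region in 11.6%. Over all merged regions the corresponding shares were 27.4%, 36.1%, 7.61% and 12.51%, and the low share of constant regions follows from the rule. No region of any library lay within 50 kb of 196 far regions (1.83%).

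Distances to open chromatin called at P11 were close to those in the mirror set. An OCR of at least 1 P11 library lay within 1 kb of 1096 far regions (10.2%) and within 5 kb of 3690 (34.4%), and the median distance was 7216 bp. Far P11-only regions had an OCR of at least 1 E21 library within 1 kb in 9.64% and within 5 kb in 33.4%, at a median of 6883 bp. For 411 far regions (3.83%) there was none within 50 kb. A reproducible P11-only region was within 1 kb of 231 (2.15%) and within 5 kb of 1146 (10.7%). Other E21-only regions were about as distant, with a median of 43528 bp against 39737 bp to the nearest P11-only region, beside the larger number of P11-only regions. Far P11-only regions lay closer to their own kind, at a median of 24669.5 bp from another P11-only region. The number of regions per stage and the removal of chains both bear on these distances, and their part was not tested.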

How the data were processed

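ATAC-seq was performed on 2 E21 and 2 P11 RGC preparations, grouped by GEO titles. The study states separate litters, so litters are the units of the tests. With 2 libraries per stage, the p-values depend on order or sign and do not measure the size of the spread between litters. The authors ran AIAP, a pipeline for ATAC-seq reads, and called OCRs per library, without pooling. Submitters' processing notes name MACS2 (version not given in the sources used here) and Rnor_6.0 (rn6). The deposited lists give a score (−log10 q times 10), a fold ratio at the summit, −log10 p and q values and the summit position. No list holds reads per region. The authors' own DESeq2 comparison could therefore not be repeated.

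Chains were broken at gaps over 12.5 kb. OCRs with the same position were counted once (there were 0 duplicates on the numbered chromosomes). Pileup k and background b were solved from fold = (k + 1)/(b + 1) and the Poisson p value, and k came out whole within 0.02 for 100% of OCRs. A background within 0.01 of the lowest in a library was called genome-wide. Far and beside medians were compared within libraries with an exact sign-flip test, and stages with an exact permutation test, whose smallest p values are 0.5 and 0.333. Intervals are 95% Wilson intervals. The rule and the pileup solution were tested on simulated data. Python 3.11.15, NumPy 2.4.6, SciPy 1.17.1, pandas 2.3.3 and statsmodels 0.14.6 were used.

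The members, comparisons and lists were chosen with earlier results of these data known. The regions named were the 10 with the highest mean rank, 3 on each side of the limit, the 3 farthest and the 3 widest. Start sites, GC content, motifs and gene lists need a genome or annotation of the build of the lists and were not analysed here. Alternatives varied the OCR limits and number, the merging overlap, the distance and chain limits, the reference regions and the libraries.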

Additional observations from a re-analysis of the deposited data

Results flagged for a closer look

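Chromosome X lies outside the rule, and its OCRs enter no comparison above. The same steps applied to it gave 310 E21-only regions, of which 301 were unchained and 249 of these (82.7%, 95% Wilson interval 78.0 to 86.6%) lay over 5 kb from a region in all 4 libraries. The P11-only regions on X gave 361 far of 455 unchained (79.3%, 75.4 to 82.8%). These regions were picked out because they hold signal in data that no comparison used. With 2 libraries per stage, no search was made for a single library apart from its group.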

How the results depend on the processing

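The number of far regions was within a factor of 1.5 of 10737 under 11 of 13 alternatives. Leaving out one library gave from 12561 to 18124. The replicate block, in which same-numbered libraries were compared and averaged, gave 18234. The far share of unchained E21-only regions was 69.0% with a −log10 q of at least 5, 74.9% with a fold of at least 4, 69.7% with equal numbers of OCRs, 80.4% and 46.4% with limits of 2.5 and 10 kb, 54.2% with distance to any region called in both stages, 58.3% with the replicate block and 60.8 to 64.1% without one library. The difference from P11-only was −3.88 points with a fold of at least 4, 4.49 with equal numbers, 3.70 with the replicate block and 3.42 to 6.91 without one library. Distance limits and fewer libraries change the members by construction; the cause of the other changes was not tested.

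The fold difference between far and beside regions was positive under 14 alternatives, from 0.169 to 0.789, and 0.507 with the replicate block. The mean width difference was positive under 14, from 4 to 33.8 bp. The rank difference was −7.09 percentiles with a fold of at least 4 and −1.20 to 1.17 without one library (−1.20 without E21 replicate 2 and −0.262 without P11 replicate 1). At the genome-wide background the rank difference was 2.86. The median summit gap was 26 bp with a −log10 q of at least 5, 22 with a fold of at least 4, 27 with equal numbers, 28 with an overlap of 100 bp, with 2.5 kb, with 10 kb and with chain gaps up to 25 kb, and 31.5 between centres of OCRs. The change of the E21-only share with distance was 11.5 points with a fold of at least 4, 16.8 with the replicate block and 11.9 to 28.9 without one library.

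The alternatives to the change with distance and the genome-wide background setting were chosen after seeing the data. The labels give same-numbered libraries a shared number and no batch. Over regions in all 4 libraries, their rank deviations from the stage means had a correlation of 0.0272. With 2 libraries per stage, this value cannot decide whether they shared a batch. Alternatives that need a genome sequence or start sites (windows for GC content, promoters and motifs) were not run. The lowest pileups called at the genome-wide background were 13 or 14 fragments, and sites with more fragments can go uncalled where the local background is higher.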

Other observations

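The values here were picked after the data were seen. A stretch of chromosome 3 from 87 to 90 Mb held 37 merged regions, of which 18 were far E21-only, 2 were P11-only, 2 were in all 4 libraries and 11 were in 1 library. Of the 60 far regions that lay over 300 kb from constant open chromatin, 12 were in this stretch. It held all of its E21-only regions as far ones, and none was chained.

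Far regions were spread over 2434 windows of 1 Mb, with a median of 4 per window that had any, and 107 windows held 10 or more. The fullest were chr7:65000001-66000000 with 19 far E21-only and 3 far P11-only regions, chr12:26000001-27000000 with 17 and 3, chr13:104000001-105000000 with 17 and 2, chr10:87000001-88000000 with 16 and 1, and chr10:100000001-101000000 with 15 and 1. The last of these held 6 regions in all 4 libraries, the others from 19 to 27. In 10 windows with 27 far regions in all, no region in all 4 libraries was present.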
